A study of Mus musculus with 2 samples.

Results

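The 10 genes described here are those of the insulin-like growth factor (IGF) system in the lung of mouse embryos: the ligand genes Igf1 and Igf2, the noncoding RNA H19 that neighbours Igf2, the receptor genes Igf1r and Igf2r, and the binding protein genes Igfbp2, Igfbp3, Igfbp4, Igfbp5 and Igfbp7. They were taken by symbol from a list and all 10 were found among the 43346 gene rows. RNA-seq of whole lung at embryonic day 16.5 gave 2 libraries, replicates 1 and 2 of 1 group, each from pooled male and female B6NCrl embryos (41 embryos for replicate 2, no number stated for replicate 1), with no genetic change or treatment named. Each library was made from 10 ng of RNA longer than 200 nt, and spike-ins were added. There is no second condition, so levels and ratios are described with how far the 2 pools differed, without tests. In a whole organ, fewer cells of a type and less RNA per cell cannot be told apart.

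IGF1 and IGF2 are secreted growth factors that signal through the tyrosine kinase receptor encoded by Igf1r, whereas the receptor encoded by Igf2r takes IGF2 into the cell for degradation and also carries lysosomal enzymes tagged with mannose 6-phosphate. Secreted binding proteins hold the ligands outside the cell, and proteases release them. Igf2 is transcribed from the paternal chromosome and H19 from the maternal one under a shared imprinting control region, and Igf2r is transcribed in most mouse tissues from the maternal chromosome, with the antisense RNA Airn made from the paternal one. In the fetus, IGF2 is a main growth factor, and IGF signalling is needed for the lung to grow and mature.

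Sequences at 3 of the annotated Igf2 starts are shown first, because coding transcripts of the gene begin at each of them. The starts of Igf2-208 and Igf2-205 held 43.5% and 6.51% of Igf2 TPM (transcripts per 1000000, a level per length). They are not shown, although Igf2-205 is coding too. Each sequence shown is the 250 bases before an annotated start, on the minus strand of chromosome 7, from RefSeq on build GRCm38.p6. GC box letters (GGGCGG on either strand) are in capitals. The first start is that of Igf2-203, the second lies within 100 bases of Igf2-204 and Igf2-206, and the third is that of Igf2-201, with Igf2-202 starting within 100 bases of it. The second is printed without the last 34 bases before its start, which lie in an exon of Igf2-204, although they are in the counts of motifs.
Igf2-203 start, chr7:142666817-142667066: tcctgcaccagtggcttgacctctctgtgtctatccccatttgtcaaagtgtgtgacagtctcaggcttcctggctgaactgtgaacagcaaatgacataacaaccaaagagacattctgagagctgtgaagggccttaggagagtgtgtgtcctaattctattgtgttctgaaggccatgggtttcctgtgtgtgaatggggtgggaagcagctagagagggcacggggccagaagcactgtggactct
Igf2-204 and Igf2-206 start, chr7:142661306-142661521: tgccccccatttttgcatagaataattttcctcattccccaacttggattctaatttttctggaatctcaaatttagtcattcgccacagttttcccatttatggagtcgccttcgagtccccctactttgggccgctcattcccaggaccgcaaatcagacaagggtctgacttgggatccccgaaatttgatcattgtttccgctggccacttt
Igf2-201 and Igf2-202 start, chr7:142657497-142657746: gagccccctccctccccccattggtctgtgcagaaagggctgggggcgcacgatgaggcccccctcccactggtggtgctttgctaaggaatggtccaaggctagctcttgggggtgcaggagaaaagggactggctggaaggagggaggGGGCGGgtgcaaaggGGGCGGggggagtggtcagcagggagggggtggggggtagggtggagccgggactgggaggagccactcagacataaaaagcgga
The first of these windows held 1 CpG and 0 GC boxes, the second 10 CpG and 0 GC boxes, and the third 6 CpG and 2 GC boxes. The TATA box letters TATAAA, searched on both strands, were in none of the 3, and the motifs do not overlap each other. Over all 32851 RefSeq promoter windows, the median was 6 CpG in the 250 bases before the start, 32.7% held a GC box and 12.4% held the TATA letters. Another Igf2 window, not shown, held 22 CpG and 1 GC box. Its RefSeq start, at base 142658804, lies inside the first exon of Igf2-205. Of the other windows of these genes, that of Igf1r had the most CpG, 42. That of Igfbp4 was the only window among 13 with the TATA letters, which began 28 bases before its start. Of the 10 genes, 9 had a RefSeq window.

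The microRNAs carried by these genes are shown because H19 and Igf2 are their host genes, with the seed (bases 2 to 8) in capitals, from RefSeq. The miR-675 hairpin lies in the first exon of H19-202 and miR-483 lies outside the exons of Igf2-203.
mmu-miR-675-5p: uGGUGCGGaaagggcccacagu
mmu-miR-675-3p: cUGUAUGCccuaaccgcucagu
mmu-miR-483-5p: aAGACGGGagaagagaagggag
mmu-miR-483-3p: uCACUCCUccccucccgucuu
The 4 seeds differ from each other. The rows of both hairpins, 84 and 73 bases long, had an effective length of 0, so these libraries hold no measure of either microRNA.

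Libraries held 38852470 and 27145411 expected counts, of which gene rows took 37958806 and 26514605. All 8 genes of the lung list exceeded 10 TPM in both replicates, with a list median of 187 ± 5.46 TPM (SD, n = 2, as throughout). They include the surfactant gene Sftpc, the lung lineage factor Nkx2-1 and the mesenchymal factors Tcf21, Foxf1 and Tbx4. Genes listed for liver, skeletal muscle, thymus and heart were present and uneven, and the source of their RNA was not tested. All 10 liver genes were 1.5-fold or more higher in replicate 2, with summed levels of 203 and 906 TPM, as were 7 of 8 skeletal muscle genes, with sums of 180 and 525 TPM. Of all genes that averaged 1 TPM or more, 6.03% differed this much in either direction. Thymus genes summed to 10.4 and 27.8 TPM, and 4 of 4 compared were 1.5-fold or more higher in replicate 2. Cardiac genes summed to 1070 and 815 TPM, and 6 of 7 were lower in replicate 2. No defining marker of these organs was listed at 0 in both replicates.

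All 10 IGF genes were at 1 TPM or more in both replicates, and all 10 were at 10 TPM or more as well. Their median was 72.1 and 69.5 TPM. Over the 21474 genes coding for protein, which leave out H19, 61.5% reached 1 TPM in both, and the median was 4.71 and 5.02 TPM. Of all 43346 gene rows, 9255 averaged 10 TPM or more. The 10 genes were chosen with earlier results of these data known, so their height over these backgrounds is not a test. H19, Igfbp4 and Igf2 formed the top, Igfbp2 and Igfbp7 followed, Igf1, Igfbp5 and Igf2r shared a middle level, and Igf1r and Igfbp3 were lowest. Together the 10 genes held 1697 and 1744 TPM.

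**Figure D1:**
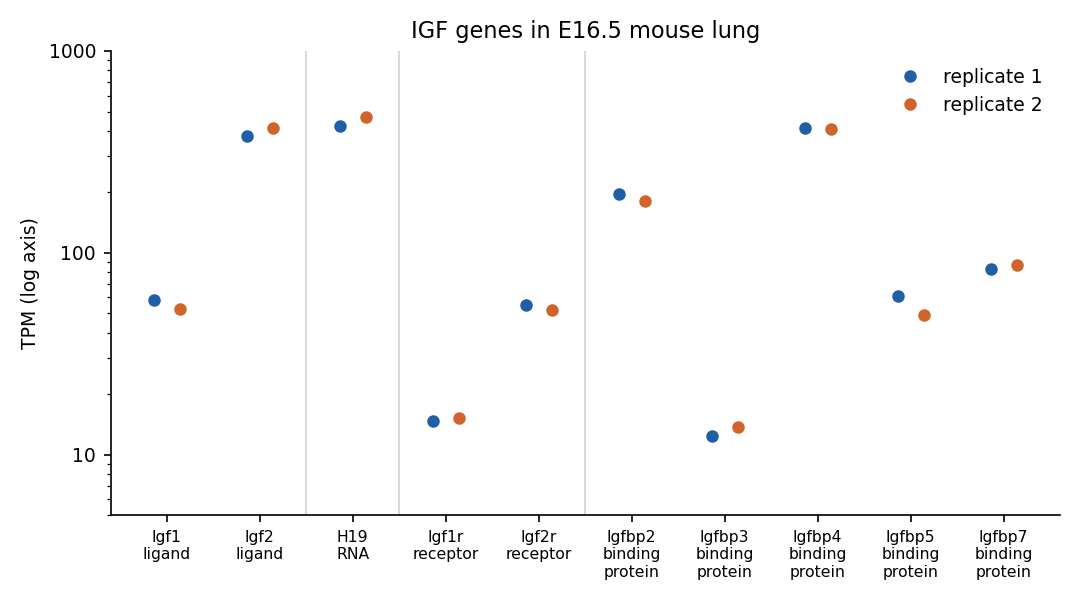
TPM of each IGF gene (log axis) in replicate 1 and replicate 2, grouped by role. H19, Igfbp4 and Igf2 lie between 380 and 472 TPM, and Igfbp3 and Igf1r between 12.4 and 15.2 TPM.

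Igf2 was the main ligand RNA. Igf2, on chromosome 7 (142650766 to 142666816, minus strand, build mm10), stood at 380 TPM (replicate 1) and 412 TPM (replicate 2), from 12519 and 8974 expected counts, and ranked 374 and 326 among all gene rows. Igf1, on chromosome 10 (87858265 to 87937042, plus strand), was at 58.5 and 52.6 TPM, from 8055 and 5076 expected counts. Igf2 lay above Igf1 in both libraries with no overlap and made up 87.7 ± 1.42% of the ligand TPM, 7.17 ± 0.941 times the Igf1 level. That size rests on the length by which reads were divided. The mean log2 ratio was 2.83 ± 0.19 by TPM, 1.92 ± 0.14 over transcripts annotated as protein coding, 1.31 ± 0.13 by counts per kilobase of the longest transcript and 0.73 ± 0.13 by counts with no length. Igf2 was higher in each of these.

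Igf2 transcripts differed in where they start and in what they encode. Transcripts with at least 5% of the TPM of Igf2 in either replicate were Igf2-208, Igf2-203, Igf2-202 and Igf2-205. Igf2-208, a processed transcript of 958 bases that lies inside the last exon, 788 bases beyond the coding part, took 41.9% and 45.2%. It has no annotated coding sequence and none of its exon bases is its own, and its splice removes 1230 bases. Igf2-203, which is coding and starts farthest upstream, took 32.3% and 33.1%, and 41 of its 650 bases lie in no other transcript. Igf2-202 took 14.2% and 11.9%. Igf2-205, with a first exon of 1126 bases of its own and 191 coding codons in place of 180, took 7.17% and 5.85%.

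Grouped by start, and counting from the first start, the start of Igf2-203 held 32.7 ± 0.594% of Igf2 TPM. The start at 9320 bases, the last of those shown above, held 13.8 ± 1.58%, and the start of Igf2-205 at 7327 bases held 6.51 ± 0.933%. The start at 5511 bases, the middle of those shown above, held 3.39 ± 0.417%, most of it from the retained intron form Igf2-206, with the coding form Igf2-204 at 0.0800% and 0.0900%. The order of the starts was the same in both replicates. By expected counts, which are not divided by length, the order was another: the start at 9320 bases took 29.1% and 26.7% of Igf2 counts, that of Igf2-205 26.3% and 23.0%, that of Igf2-203 14.1% and 15.5%, and Igf2-208 28.6% and 33.0%. The start at 5511 bases stayed low, at 1.83% and 1.72%. Transcripts annotated as protein coding together held 207 and 213 TPM of Igf2.

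**Figure D2:**
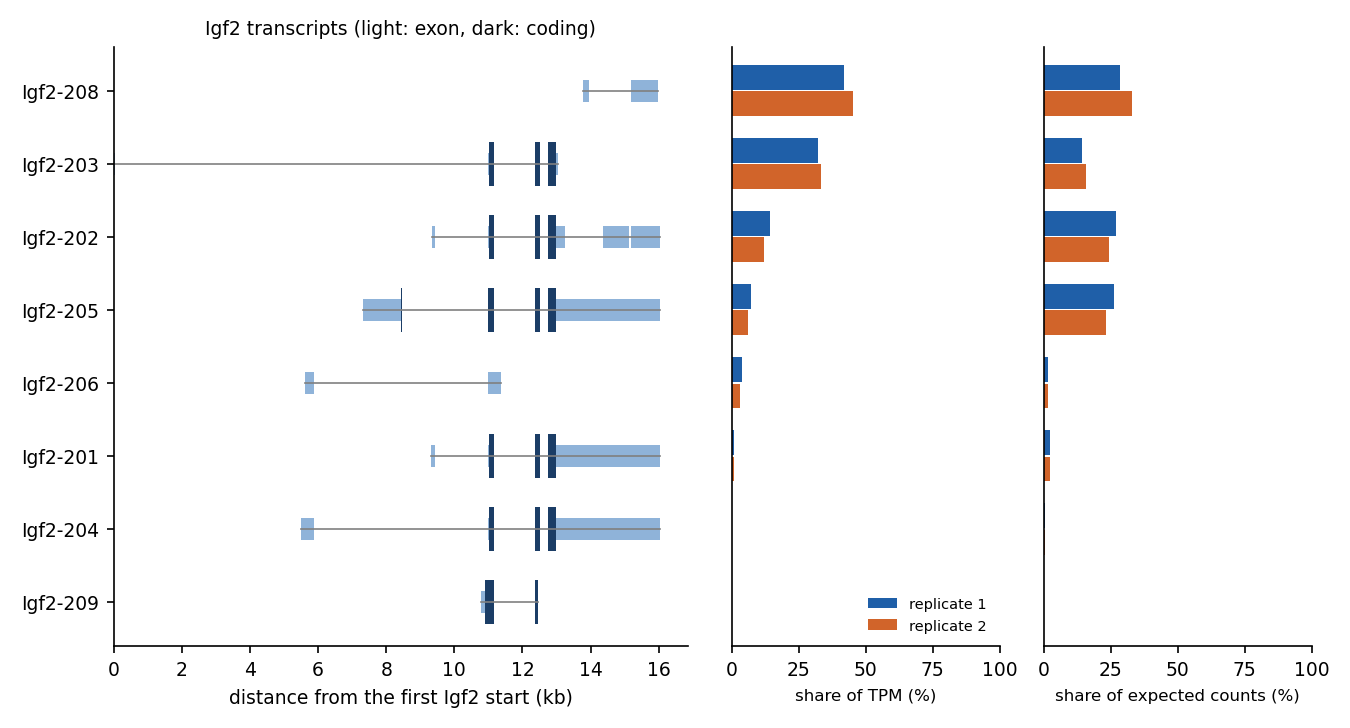
Igf2 transcripts by distance from the first start in kb (left; light bars are exons and dark bars coding exons), with each one's share in percent of Igf2 TPM (middle) and of Igf2 expected counts (right) in both replicates. Igf2-208 leads by TPM at 41.9% and 45.2%, and Igf2-202, Igf2-205 and Igf2-208 each hold 23.0% to 33.0% of the counts.

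Igf1 was carried mostly by its longest form. Igf1-202, of 7052 bases with 153 coding codons, took 70.1% and 69.4% of Igf1 TPM, Igf1-203 took 13.9% and 12.1%, and Igf1-206 took 8.58% and 11.8%. These 3 forms were the only ones at 5% or more. The leader that encodes the start of the precursor comes from alternative first coding exons. Forms using the upstream one, which ends at base 87859412 of chromosome 10 and has 63 coding bases, held 84.9% and 82.2% of Igf1 TPM. Forms using the downstream one, with 15 coding bases, held 15.1% and 17.8%. By expected counts the upstream share was 97.0% and 96.6%.

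Igf1 forms also differ by an exon of 52 bases near the 3′ end of the coding sequence, which changes the E peptide, the tail that is cut from the mature growth factor. It is shown because its presence separates Igf1-203 and Igf1-206 from Igf1-202. The exon is at chr10:87915298-87915349 on the plus strand, in capitals, with 10 bases of each flanking exon, from the GENCODE M21 transcripts on mm10, and the line below it is the junction without the exon.
Igf1-203: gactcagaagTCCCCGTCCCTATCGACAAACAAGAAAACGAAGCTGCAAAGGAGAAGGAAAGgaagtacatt
Igf1-202: gactcagaaggaagtacatt
Forms that skip the exon held 73.1% and 71.4% of Igf1 TPM, forms that contain it and go on to the last exon held 22.5% and 23.9%, and forms that end at it held 4.40% and 4.68%. Igf1-202 has 153 coding codons and Igf1-203 has 159. By expected counts the skipping share was 93.1% in each replicate. Igf1-202 has 5431 bases that lie in no other Igf1 transcript, most of them after the coding part, whereas Igf1-203 and Igf1-206 have 0 such bases.

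**Figure D3:**
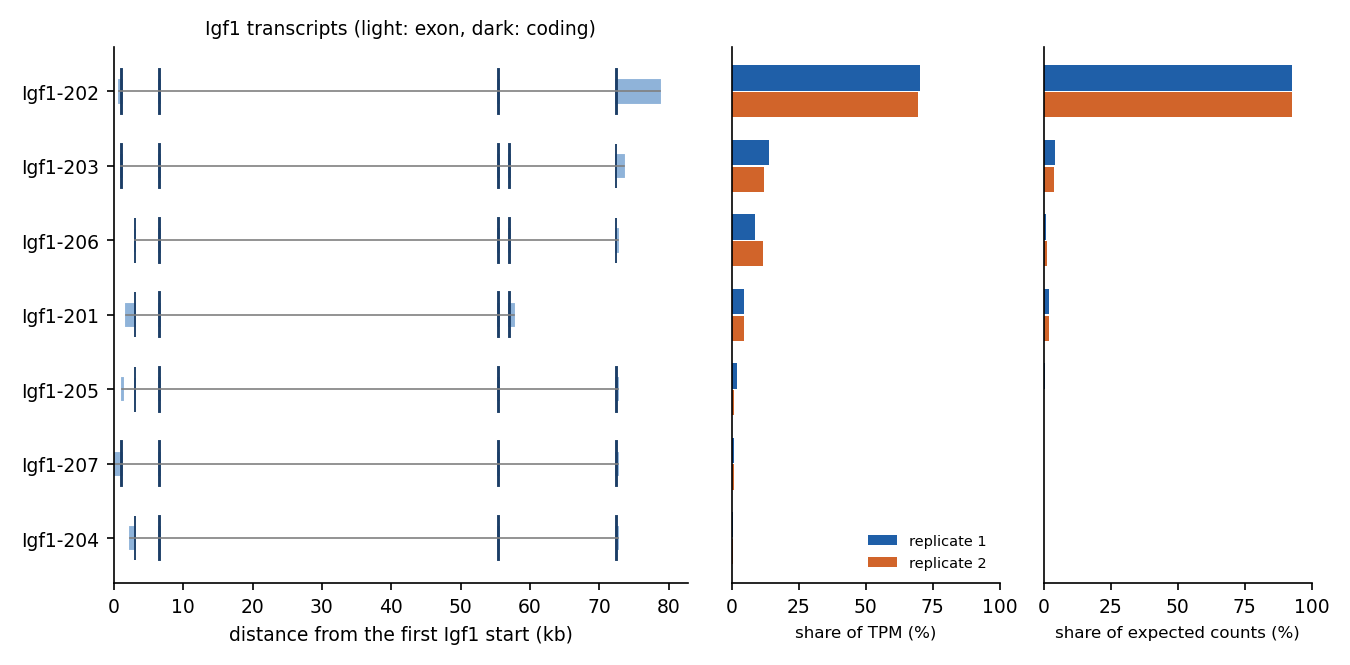
Igf1 transcripts by distance from the first start in kb (left; light bars are exons and dark bars coding exons), with each one's share in percent of Igf1 TPM (middle) and of Igf1 expected counts (right). Igf1-202 leads in both replicates, with 70.1% and 69.4% of TPM and 92.6% and 92.7% of counts.

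H19, which lies on chromosome 7 (142575529 to 142578143, minus strand) with 72.6 kb between it and Igf2, was the highest of the 10 genes. Its level was 424 TPM (replicate 1) and 472 TPM (replicate 2), from 18866 and 14244 expected counts. H19 was above Igf2 in both replicates, by a log2 ratio of 0.16 and 0.20, and the lowest H19 level, 424 TPM, lay above the highest Igf2 level, 412 TPM. The ratio was 1.09 ± 0.08 on the log2 scale when only coding transcripts of Igf2 were summed, and 1.68 ± 0.05 per kilobase of the longest transcripts. H19-202, which has 5 exons, took 42.2% and 36.6% of H19 TPM, H19-205 took 35.3% and 35.9%, and H19-203, of 817 bases, took 22.6% and 27.5%. H19-202 led in both replicates, by less than 1 percentage point over H19-205 in replicate 2.

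Genes around Igf2 and H19 were read for comparison. Of 15 listed neighbours on distal chromosome 7, 11 reached 1 TPM in both. Cd81, which encodes a tetraspanin of the cell surface, was highest at 642 and 657 TPM, and Cdkn1c, an imprinted inhibitor of the cell cycle, followed at 249 and 259 TPM. Ins2, the insulin gene next to Igf2, had 1 count in replicate 1 and 0 in replicate 2, where a count of 0 allows up to 0.465 TPM by counting error alone. The deposited bounds of Ins2 lay higher, at 0.383 to 1.85 and 0.459 to 2.43 TPM, and neither held its own TPM value of 0.110 and 0. Tnnt3, a fast skeletal muscle troponin, was at 15.0 and 42.4 TPM, and Mrpl23, a mitochondrial ribosomal protein gene, at 62.9 and 26.6 TPM, where the deposited bounds overlap. Igf2os, antisense to Igf2 over 7.12 kb, was at 0.770 and 0.560 TPM. The strand setting is not given in the sources used here, so reads of overlapping antisense genes cannot be told apart.

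Igf2r exceeded Igf1r. Igf1r, on chromosome 7 (67952827 to 68233668, plus strand), was at 14.7 and 15.2 TPM, near the middle of the 15493 genes that averaged 1 TPM or more, of which 50.3% were higher. Igf2r, on chromosome 17 (12682406 to 12769664, minus strand), was at 54.9 and 51.8 TPM. The receptor levels did not overlap, and Igf2r stood 3.57 ± 0.243 times as high as Igf1r. Igf1r had a single transcript in the tables, of 4489 bases as quantified and 11409 bases in the later GENCODE M21. Its TPM, and each ratio to it, rest on the shorter form. Igf2r-201, of 48 exons, took 96.4% and 93.2% of Igf2r TPM. Airn, antisense to Igf2r over 28.4 kb and needed for its imprinting, was at 28.5 and 30.0 TPM.

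Insr, the insulin receptor gene, whose product also binds IGF2 in one splice form and pairs with the Igf1r product, was at 27.1 and 31.0 TPM, 1.94 ± 0.131 times the level of Igf1r. Insrr, a related receptor gene, was at 0.0300 and 0.190 TPM. The insulin gene Ins1 had 0 counts in replicate 1, which allows up to 0.125 TPM, and 1 count in replicate 2. Igf2 was 26.5 ± 0.815 times as high as Igf1r and 7.44 ± 0.735 times as high as Igf2r. These ratios rest on the lengths by which reads were divided, and no alternative was run for them. Coding transcripts of Igf2 alone held 207 and 213 TPM. Expected counts were 12519 and 8974 for Igf2, 12188 and 7874 for Igf2r, and 1683 and 1238 for Igf1r.

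Igfbp4 led the binding proteins. Igfbp4, on chromosome 11 (99041244 to 99054392, plus strand), encodes a binding protein that holds IGFs away from the receptor until it is cut by pappalysin, and was at 413 and 412 TPM. Igfbp2, on chromosome 1 (72824503 to 72852474, plus strand), a binding protein known from alveolar type 1 cells, was at 195 and 179 TPM. Igfbp7, on chromosome 5 (77349240 to 77408041, minus strand), which encodes a secreted protein with low affinity for IGFs that vessels make, was at 83.5 and 86.4 TPM. These 3 genes did not overlap in level.

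Igfbp5, on chromosome 1 (72857932 to 72874884, minus strand), whose product binds extracellular matrix, was at 60.8 and 49.2 TPM. It lies 5.46 kb from Igfbp2, and the neighbours differed 3.43 ± 0.308 times in level. Igfbp3, on chromosome 11 (7206086 to 7213923, minus strand), the main carrier of IGFs in adult serum, was the lowest at 12.4 and 13.7 TPM. Of the summed TPM of the 5 genes, 765 and 740 TPM, Igfbp4 held 54.0% and 55.6%, Igfbp2 25.5% and 24.2%, Igfbp7 10.9% and 11.7%, Igfbp5 7.94% and 6.64%, and Igfbp3 1.62% and 1.85%. The sum was 1.67 ± 0.106 times that of the ligands. This ratio rests on the lengths by which reads were divided, and no alternative was run for it. Coding transcripts alone held 190 and 181 TPM of Igfbp4 and 207 and 213 TPM of Igf2.

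The transcript with the most Igfbp4 TPM was Igfbp4-203, a processed transcript of 785 bases with no annotated coding sequence, of which 28 bases lie in no other Igfbp4 transcript. It took 53.8% and 56.0% of Igfbp4 TPM, and 18.6% and 19.7% of its expected counts. The coding form Igfbp4-201, of 3831 bases, took 42.8% and 41.7% of TPM, and 80.7% and 79.8% of counts. Over coding transcripts alone, Igfbp4 was at 190 and 181 TPM and Igfbp2 at 195 and 179 TPM, so their order then differed between the replicates. By counts not divided by length Igfbp4 was still the highest binding protein, with 54.9 ± 1.89% of the sum of the 5 genes, and so it was by counts per kilobase of the longest transcript, with 40.6 ± 1.02%. Igfbp4 was the only one of the 10 genes whose leading transcript differed between TPM and counts. The other 4 binding proteins were each carried by a single coding form, from 95.6% for Igfbp2-201 in replicate 2 to 100% for Igfbp5-201 in both replicates.

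Binding protein genes outside the 10 were low apart from Igfbp6, which favours IGF2 as its ligand, at 21.6 and 28.9 TPM. Igfbp1, made chiefly by liver, was at 0.480 and 2.88 TPM from 18 and 76 expected counts, with deposited bounds of 0.280 to 0.720 and 2.18 to 3.44 TPM. In the liver list, Alb was at 10.1 and 88.3 TPM and Afp at 18.3 and 155 TPM. The part of liver RNA in the Igfbp1 level was not tested. Igfbpl1 was at 0.0300 and 0.0600 TPM. Over all 4 of these genes, 1 reached 1 TPM in both replicates.

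Along the order of mean level, 3 neighbouring pairs did not differ beyond their spread (mean ± SD). Igfbp4 and Igf2 changed places between the replicates, as did Igf1 and Igfbp5, and Igfbp5 and Igf2r. The other 6 neighbouring pairs kept their order and lay apart by mean ± SD. At the top, H19 at 448 ± 34.3 TPM stood over Igfbp4 at 412 ± 0.898 TPM. At the bottom, Igf1r at 14.9 ± 0.389 TPM stood over Igfbp3 at 13.1 ± 0.912 TPM. Deposited bounds of H19 and Igfbp4 overlapped in replicate 1 only, at 407 to 424 and 393 to 416 TPM. Those of Igf1r and Igfbp3 overlapped in replicate 2 only, at 14.0 to 15.6 and 12.3 to 14.4 TPM.

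Differences between the replicates were taken as log2(TPM + 1) of replicate 2 less that of replicate 1. By this measure 0 of the 10 genes differed by 1.5-fold or more, against 6.03% of the 15493 genes that averaged 1 TPM or more, a share at which few of 10 genes would be called. The differences ran from -0.30 for Igfbp5 to 0.16 for H19, with 5 genes higher and 5 lower in replicate 2. Their median was 0.02, against 0.00150 over all genes compared. Regardless of sign, the median size of the difference was 0.12 in the 10 genes. It was 0.0882 over 7597 genes from 10 to 100 TPM and 0.0680 over 1556 genes from 100 to 1000 TPM. The SD of the signed difference in these ranges was 0.24 and 0.15. Deposited bounds of the replicates did not overlap for 4 of the 10 genes, Igf2, H19, Igfbp2 and Igfbp5. Bounds lay apart for 16.6% of the genes that averaged 1 TPM or more, and for 1943 of the 9255 that averaged 10 TPM or more. These bounds cover estimation within a library, not the spread between pools, and 2 of the 20 values of these genes lay outside their own bounds. The higher liver, muscle and thymus sums and lower cardiac sum of replicate 2 stand beside these differences. Erythroid genes also summed higher in replicate 2, at 10319 and 12486 TPM. So did mesothelium genes, at 360 and 450 TPM, and alveolar type 1 genes, at 948 and 1036 TPM. Mesenchyme genes summed lower, at 4308 and 4140 TPM, as did endothelium (718 and 701 TPM) and cartilage genes (49.0 and 48.5 TPM). The part of these sums in the differences was not tested. The sign for Igf2 depended on scaling: its difference was 0.12 by TPM, 0.00266 by edgeR's TMM and -0.00147 by DESeq2's size factors. The other 9 genes kept their sign under these scalings.

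**Figure D4:**
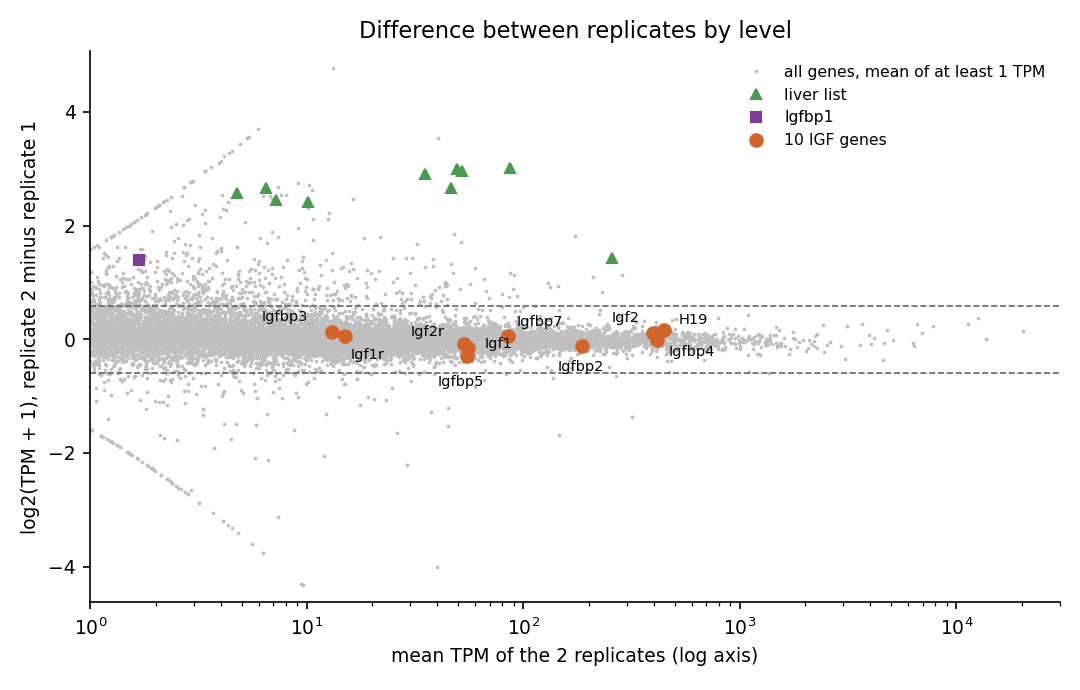
Difference between replicates on the log2(TPM + 1) scale against mean TPM (log axis) for the 10 IGF genes, Igfbp1, the liver list and all genes that averaged 1 TPM or more; dashed lines mark 1.5-fold. The 10 IGF genes lie between -0.30 and 0.16, and the 10 liver genes lie above the upper line.

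The wider pathway was read from 10 lists of 74 genes, each gene counted once, of which 58 were at 1 TPM or more in both replicates. Of 62 genes compared, 3 differed by 1.5-fold or more between the replicates, Igfbp1 and Tnnt3 higher and Mrpl23 lower in replicate 2. Over all 15493 genes that averaged 1 TPM or more, 6.03% differed this much, so the count is near that share. The median difference of the 62 genes was 0.00852, against 0.00150 over all genes compared.

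Genes for binding protein proteases and their inhibitors were uneven. Ctsd, a lysosomal protease that can cut binding proteins, was at 258 and 277 TPM, and Htra1, a secreted protease with binding proteins among its targets, at 64.4 and 61.0 TPM. Pappa, which encodes the pappalysin that cuts the Igfbp4 product, was the lowest of the 6 genes at 0.720 and 0.620 TPM, while its substrate gene Igfbp4 was among the highest. The list, which holds inhibitors as well as proteases, had 4 of 6 genes at 1 TPM or more in both replicates, inhibitors among them.

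All 3 genes of the IGF2 mRNA binding proteins, which bind Igf2 and other mRNAs in fetal tissue, exceeded 10 TPM. Igf2bp2 was at 41.7 and 35.6 TPM, Igf2bp1 at 29.8 and 25.4 TPM and Igf2bp3 at 28.9 and 25.7 TPM. Each was lower in replicate 2, with log2 differences of -0.16 to -0.22. Igf2 itself was at 380 and 412 TPM.

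The genes for mannose 6-phosphate sorting, the other task of the Igf2r product, were all above 10 TPM. M6pr, the smaller receptor for the same tag, was at 104 and 106 TPM and Gnptg, a subunit of the enzyme that makes the tag, at 40.5 and 42.7 TPM. Gnptab, which encodes its other subunits, was the lowest of the 4 at 15.2 and 14.1 TPM. Igf2r was 0.510 ± 0.0292 times as high as M6pr.

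Among adaptors of the receptors, Grb10, an imprinted inhibitor of insulin and IGF signalling, was highest at 485 and 430 TPM, and Shc1, which links receptors to Ras, was at 95.1 and 92.0 TPM. Irs4 was lowest with 8 counts in replicate 1 and 0 in replicate 2, which allows up to 0.0261 TPM. Grb10 stood above each of the 10 IGF genes in replicate 1 and below H19 in replicate 2. Of the 8 adaptors, 7 were at 1 TPM or more in both replicates.

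All 20 genes of the PI3K, AKT and mTOR list, the kinase cascade below the receptors, were at 1 TPM or more in both replicates. Rheb, the small GTPase that turns on mTOR, led at 170 and 158 TPM, and Eif4ebp1, a target of mTOR that holds back translation, was at 119 and 121 TPM. Pik3cb, a catalytic subunit, was lowest at 1.04 and 1.32 TPM. The list median was 14.2 and 15.3 TPM. Of its 20 genes, 0 differed by 1.5-fold or more, against 6.03% of all genes compared, a share at which few of 20 would be called.

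In the growth hormone axis, which raises Igf1 after birth, the receptor gene Ghr was at 84.3 and 77.9 TPM and Socs2, a brake on its signalling, at 75.2 and 77.2 TPM. The hormone gene Gh had 1 count in replicate 1 and 0 in replicate 2, where a count of 0 allows up to 0.212 TPM. Of the 6 genes, 5 were at 1 TPM or more in both replicates. Igf1 stood at 58.5 and 52.6 TPM beside them.

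**Figure D5:**
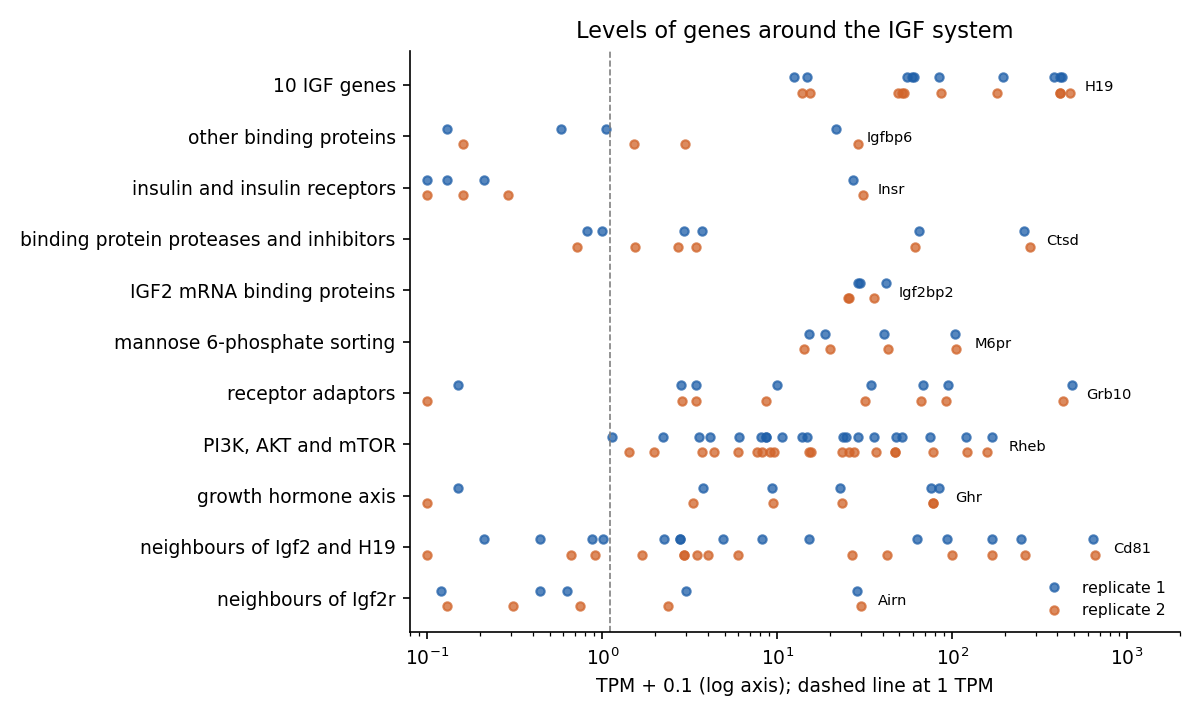
TPM + 0.1 (log axis) of every gene on the 10 IGF genes' list and 10 pathway lists in both replicates, with the highest gene of each list named. All 10 IGF genes lie right of the dashed line at 1 TPM, as do all 20 genes of the PI3K, AKT and mTOR list.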

How the data were processed

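Gene and transcript tables for 2 libraries of E16.5 mouse lung were used as deposited, quantified on mm10 with GENCODE M4 annotation per the deposited notes. Aligner, quantifier and strand setting are not given in the sources used here. Expected counts are the authors' estimates of reads per feature, with shared reads divided among features. TPM values, per the file headers, divide those counts by effective length and scale each library to 1000000, spike-ins included. The FPKM values the authors deposited were not used. The percent values deposited for transcripts are shares of the TPM of their gene. The score columns deposited beside TPM are lower and upper credibility bounds within a library.

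Symbols, coordinates and exon structures came from GENCODE M21, matched by identifier without version for 42462 of 43346 gene rows. Of 42 transcripts of the 10 genes, 36 had the same length in both annotations, and exon maps use only these. Rows other than genes, all spike-ins by count, held 2.30% and 2.32% of the counts. Depth was 38852470 and 27145411 expected counts, and a count of 0 was given an upper limit of 3 counts, for counting error only.

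With 1 group of 2 replicates no test was made. Values are given per replicate or as mean ± SD. A gene was called detected at 1 TPM in both replicates, and differences between replicates were computed on log2(TPM + 1), which understates those of low genes, and called at 1.5-fold for genes that averaged 1 TPM or more. Named were all 10 genes, the highest 2 and the lowest 1 of each pathway list, any pathway gene called, and transcripts with a share of at least 5%. Genes named beside these (Alb, Afp, Igf2os) and the lung markers were chosen after their values were seen. The genes and lists were chosen with earlier results of these data known. Alternatives used posterior mean TPM, counts without length, gene rows only, other thresholds and pseudocounts, edgeR 4.0.16 TMM and DESeq2 1.42.0 size factors on counts rounded to whole numbers, and each replicate alone. Coding transcripts only, counts per kilobase of the longest transcript, and transcript shares of counts were added after seeing the data. Promoter motifs were searched in the 250 bases before each RefSeq start. Python 3.11.15, pandas 2.3.3, NumPy 2.4.6, matplotlib 3.10.9 and R 4.3.3 were used.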

Additional observations from a re-analysis of the deposited data

How the results depend on the processing

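The count of genes at 1 TPM in both replicates (10) and the count differing by 1.5-fold (0) kept their values under each alternative run for them. With counts not divided by effective length, the log2 ratio was 0.73 for Igf2 to Igf1, 0.63 for H19 to Igf2 and 2.76 for Igf2r to Igf1r. With protein coding transcripts only, it was 1.92 for Igf2 to Igf1 and 1.09 for H19 to Igf2, and the highest mean share of the binding protein TPM was 35.6%, that of Igfbp2, whose order with Igfbp4 differed between the replicates. Per kilobase of the longest transcript, Igf2 to Igf1 was 1.31, H19 to Igf2 was 1.68 and the share of Igfbp4 was 40.6%. By expected counts, the share of Igf2-208 was 30.8% and that of Igf1-202 was 92.7%, and by posterior mean TPM that of Igf1-202 was 68.9%. No ratio changed sign.

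Leaving out each replicate in turn gave 2.70 to 2.97 for Igf2 to Igf1, 0.16 to 0.20 for H19 to Igf2, 1.77 to 1.91 for Igf2r to Igf1r, 54.0% to 55.6% for Igfbp4, 41.9% to 45.2% for Igf2-208 and 69.4% to 70.1% for Igf1-202. No paired analysis was possible because there is 1 group.

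Limits: 2 pools give an SD on 1 degree of freedom. Transcripts that overlap over nearly all their length are separated by the estimator, so the levels of Igf2, H19 and Igfbp4 by TPM depend on short transcripts. Alleles were not told apart, so imprinting was not measured.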
